A study of Mus musculus with 16 samples.

Results

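Mammary tumors of mice that differed in Cd74, the gene of the MHC class II invariant chain, were set side by side. Of 15 treated or sham tumors in a series of 16 libraries, the 5 with the highest Cd74 formed the Cd74-high class and the 5 with the lowest formed the Cd74-low class, whatever their treatment. Cd74 was ranked as CPM, a gene's counts scaled to a library total of 1000000, and the 5 tumors in between and 1 internal reference library stayed out of the comparison. Because the classes were chosen by Cd74 measured in these same libraries, every difference in gene level between them is given as a description, with no test. Tests are kept for treatment labels, library codes and depth, which the rule did not use.

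RNA came from mammary carcinomas labelled Trp53 null that grew, as transplants of the F2 generation of family F, in BALB/cJ females of 8 to 10 weeks. Treatment was assigned at random at a size of 65 to 100 mm3, agents were injected 24 hours before radiation, and tumors were frozen on day 7, with 3 tumors to a group and 1 to a library. The TGFbi+RT+anti-PD-L1 group received the TGF beta inhibitor IPW-5371 at 20 mg/kg daily, 10 Gy of focal radiation and an antibody to PD-L1 at 10 mg/kg weekly. The TGFbi+RT group received the inhibitor and radiation, the TGFbi group the inhibitor, and the RT group radiation. The Sham group received control immunoglobulin G at 25 mg/kg, 3 times per week. All tumors share the Trp53 null genotype, the host strain and the tumor family, so the data describe 1 tumor family in immunocompetent hosts. The material is bulk tumor RNA, in which fewer cells of a type and less RNA per cell cannot be told apart.

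The invariant chain assembles with the alpha and beta chains of MHC class II in the endoplasmic reticulum and guides them to endosomes. There proteases degrade it, and the chaperone H2-DM exchanges the remaining fragment for peptides that helper T cells read. Dendritic cells, B cells and macrophages make the pathway constitutively, and many other cells, carcinoma cells included, make it when interferon gamma induces Ciita, the master transcriptional activator of class II genes. In mammary tumors it is known from infiltrating immune cells and from some carcinoma cells.

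Libraries held 11002869 to 17184023 counts (median 13302488). Cd74-high libraries held 11588238 to 14424306 counts, against 12784691 to 17184023 in Cd74-low libraries. With the geometric means at a ratio of 0.895, this difference did not pass an exact two-sided permutation test (p = 0.135, adjusted p = 0.180 over 4 tests of labels and depth). At least 1 count was found for 18902 to 19896 genes in Cd74-high tumors and for 17905 to 18944 genes in Cd74-low tumors. TGFbi+RT replicate 3 and TGFbi+RT+anti-PD-L1 replicate 2 stood apart from the other tumors on the first principal component of log2 CPM (at -102 and -114, where the remaining tumors ranged over -33.1 to 88.5). Both belong to the Cd74-high class, and the library of TGFbi+RT replicate 3 is labelled as resubmitted, so the counts of higher and lower genes and the median of each list are given with and without them. Trp53 was counted at 64.0, 63.8, 75.2, 82.1 and 109 CPM in Cd74-high tumors and at 79.6, 92.6, 79.5, 85.9 and 85.7 CPM in Cd74-low tumors. The labels do not say which part of the gene is missing, so this level checks nothing about the genotype. Of the epithelial lists that mark the labelled tissue, basal markers summed to 2231 to 3268 CPM in Cd74-high tumors and 3323 to 4373 CPM in Cd74-low tumors. Luminal markers summed to 272 to 748 CPM in Cd74-high tumors and 318 to 712 CPM in Cd74-low tumors. Among these the luminal keratin Krt8 stayed at or below 29.4 CPM in both classes.

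Values of the 5 tumors of a class are listed in 1 fixed order, that of Cd74. In the Cd74-high class the order is TGFbi+RT+anti-PD-L1 replicate 2, TGFbi+RT replicate 3, TGFbi+RT+anti-PD-L1 replicate 1, TGFbi+RT replicate 1 and TGFbi+RT+anti-PD-L1 replicate 3. In the Cd74-low class it is Sham replicate 1, TGFbi replicate 2, RT replicate 3, Sham replicate 3 and Sham replicate 2. Cd74 stood at 1507, 578, 119, 113 and 66.0 CPM of the library total in the Cd74-high class, at 54.5, 54.2, 50.9, 41.3 and 35.5 CPM in the middle class, and at 18.3, 18.2, 10.6, 5.54 and 4.06 CPM in the Cd74-low class. The upper boundary fell between TGFbi+RT+anti-PD-L1 replicate 3 (66.0 CPM) and RT replicate 1 (54.5 CPM), and the lower one between RT replicate 2 (35.5 CPM) and Sham replicate 1 (18.3 CPM). Levels from here on are CPM scaled by the TMM method of edgeR, in which Cd74 averaged 461 ± 585 CPM in Cd74-high tumors and 11.6 ± 6.84 CPM in Cd74-low tumors (SD, n = 5 each). A value after ± is an SD beside a mean level and a standard error beside a log2 difference, with 5 tumors in each class throughout.

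**Figure D1:**
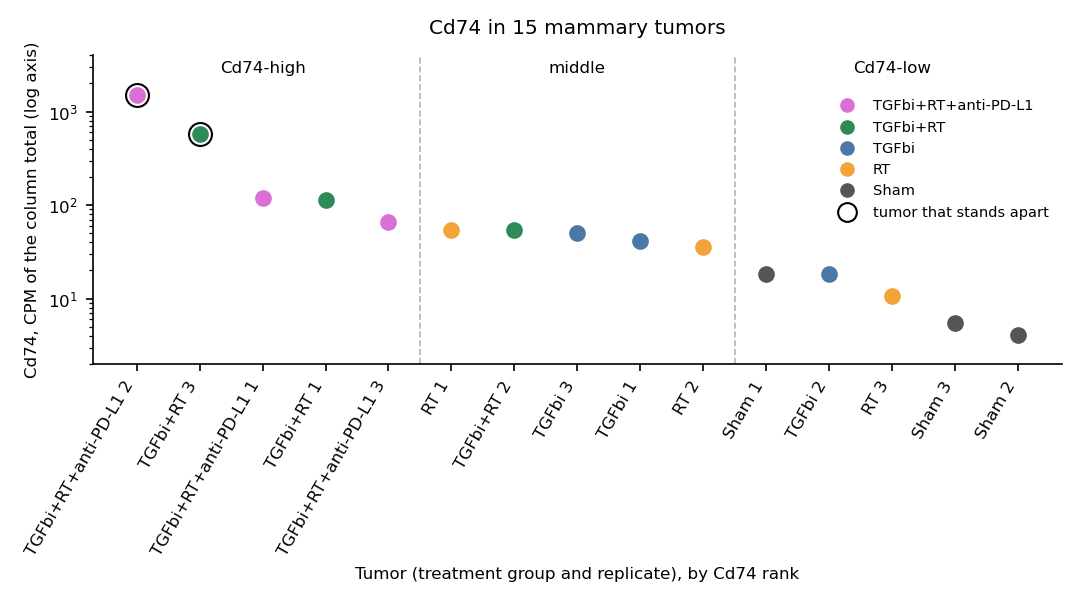
Cd74 in each of the 15 tumors, as CPM of the library total on a log axis, ordered by rank and coloured by treatment group. Ringed points are the 2 tumors that stand apart, at 1507 and 578 CPM, and dashed lines separate the classes.

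Treatment labels were not used to form the classes, yet they divided between them. All 5 Cd74-high tumors had received both the inhibitor and radiation, against 0 of 5 Cd74-low tumors (Fisher's exact test, two-sided, p = 0.00794, a comparison added after the classes were seen). Counted alone, the inhibitor had been given to 5 of 5 Cd74-high and 1 of 5 Cd74-low tumors, and radiation likewise to 5 of 5 and 1 of 5. Each of these single-agent differences had an exact two-sided Fisher p of 0.0476 and an adjusted p of 0.0952 over the 4 tests, which does not pass. Class and combined treatment can therefore not be told apart in these 10 tumors. Libraries with code A2304 made up 2 of 5 Cd74-high and 1 of 5 Cd74-low libraries (exact Fisher p = 1, adjusted p = 1).

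A gene is called higher here when all 5 Cd74-high tumors lay above all 5 Cd74-low tumors and the mean log2 CPM differed by at least 1, and lower in the mirrored case. Among 16016 genes with enough counts, Cd74 left out, 582 were higher (3.63%) and 5 were lower (0.0312%). With any difference in level allowed, 653 genes had all Cd74-high tumors on top (4.08%) and 190 had them all below (1.19%). The median log2 difference of all genes was -0.01, with 7850 genes above 0 and 8166 below. Of the higher genes 426 differed by at least 2 on the log2 scale and 60 by at least 4. Gene filtering used counts of all 15 tumors, and a gene that passed only through the Cd74-high tumors had to differ, so no count of members below is support for a direction. Every count of list members below is to be read beside 3.63% of all genes higher and 0.0312% lower. Without Sham replicate 1 the higher genes numbered 1205, and without both tumors that stand apart they numbered 566, of which 528 were among the 582, beside 9 lower genes. Counts of lower genes were small and moved more, to 8 without TGFbi+RT replicate 3, 24 without TGFbi+RT+anti-PD-L1 replicate 1, 11 without TGFbi+RT replicate 1, 15 without TGFbi+RT+anti-PD-L1 replicate 3, 13 without Sham replicate 1, 20 without TGFbi replicate 2 and 22 without RT replicate 3.

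**Figure D2:**
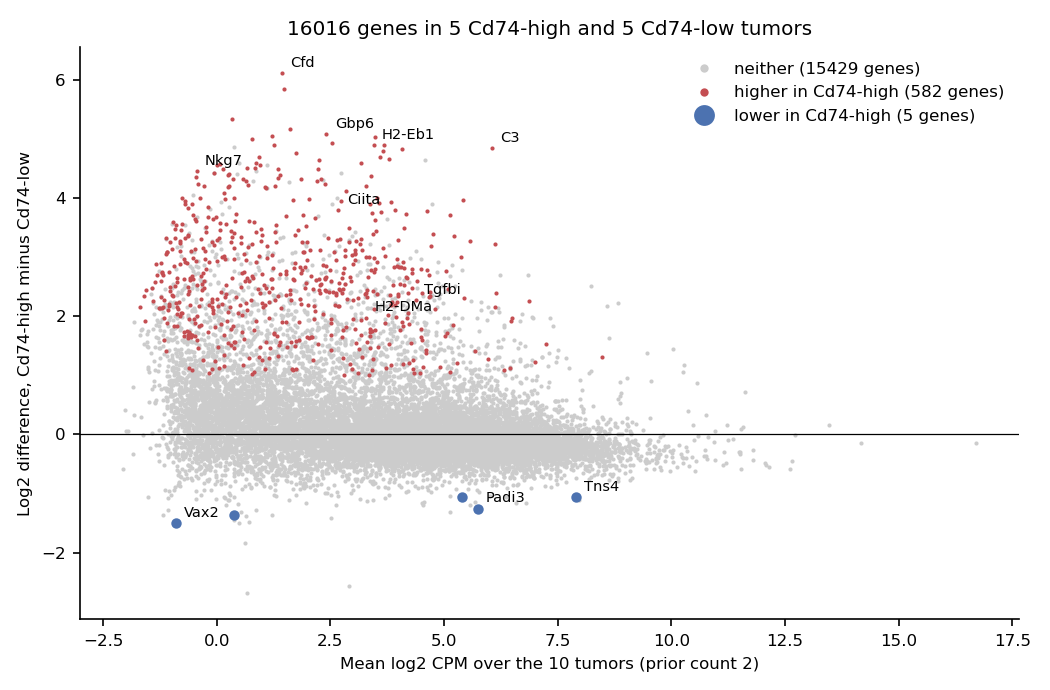
Mean log2 CPM over the 10 tumors (horizontal axis) against the log2 difference of Cd74-high minus Cd74-low tumors (vertical axis) for 16016 genes, with 582 higher genes in red and 5 lower genes in blue. Differences reach 6.12 upwards, at Cfd, while the 5 lower genes lie between -1.51 and -1.05.

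Most tested genes of MHC class II presentation other than Cd74 were higher. Of 13 listed genes 11 had enough counts, 8 were higher, and all 11 lay above 0 with a median log2 difference of 3.80. Without the 2 tumors that stand apart 7 were higher and the median was 2.80. The promoters of 3 of these genes and of Cxcl9 are shown first, since class II genes share a promoter module. The levels that follow also cover Ciita, which had no window, and genes such as Ctss and Ifi30, whose windows held no X box or CCAAT match. In each window, 250 bases before and 50 after the RefSeq start on GRCm38.p6, capitals mark matches on either strand to the Y box core CCAAT, the X box core AGNNACNGA, the gamma activated site TTCNNNGAA or the interferon response element core (GAAA, any 2 bases, GAAA).
H2-Eb1: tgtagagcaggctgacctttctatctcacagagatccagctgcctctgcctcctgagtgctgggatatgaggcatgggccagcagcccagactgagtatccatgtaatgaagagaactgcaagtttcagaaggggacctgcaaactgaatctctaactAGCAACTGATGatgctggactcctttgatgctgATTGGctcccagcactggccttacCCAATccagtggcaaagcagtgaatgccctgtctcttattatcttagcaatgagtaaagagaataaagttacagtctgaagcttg
H2-DMb1: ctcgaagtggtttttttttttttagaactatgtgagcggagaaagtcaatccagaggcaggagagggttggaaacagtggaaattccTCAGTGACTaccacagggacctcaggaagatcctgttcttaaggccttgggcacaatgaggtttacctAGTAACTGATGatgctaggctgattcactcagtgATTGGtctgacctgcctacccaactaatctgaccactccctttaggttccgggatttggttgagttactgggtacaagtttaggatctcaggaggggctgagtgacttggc
H2-Aa: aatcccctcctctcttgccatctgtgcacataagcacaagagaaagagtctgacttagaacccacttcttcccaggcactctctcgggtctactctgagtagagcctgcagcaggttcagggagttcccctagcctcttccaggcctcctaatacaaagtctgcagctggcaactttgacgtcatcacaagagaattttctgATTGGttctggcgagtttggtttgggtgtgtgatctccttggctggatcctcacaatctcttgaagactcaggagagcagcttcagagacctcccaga
Cxcl9: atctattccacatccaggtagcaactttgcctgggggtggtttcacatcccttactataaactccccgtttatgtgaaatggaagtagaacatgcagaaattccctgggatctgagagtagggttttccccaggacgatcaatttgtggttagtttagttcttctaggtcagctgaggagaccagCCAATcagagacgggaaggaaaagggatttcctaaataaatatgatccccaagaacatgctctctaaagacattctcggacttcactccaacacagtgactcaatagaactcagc
The windows lie at chr17:34305617-34305916 on the plus strand (H2-Eb1), chr17:34152941-34153240 on the plus strand (H2-DMb1), chr17:34287774-34288073 on the minus strand (H2-Aa) and chr5:92328030-92328329 on the minus strand (Cxcl9).

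In H2-Eb1 and H2-DMb1 the X box core was followed by TG, a longer form that contains the shorter motif and occurs in 0.968% of all 32851 RefSeq promoter windows. Downstream of it both windows held a CCAAT match on the opposite strand, beginning at base 192 of the H2-Eb1 window and base 190 of the H2-DMb1 window, with the longer X box match at bases 159 and 156. H2-Aa held the reversed CCAAT at base 203 and no match to the X box letters, and Cxcl9 held 1 CCAAT at base 186. Of 10 class II genes with a RefSeq window, 8 held CCAAT (37.4% of all windows), 3 the longer X box core and 4 the shorter one (17.7% of all windows). A gene counted when any of its windows matched, and Lgmn and H2-DMa had more than 1 window, with CCAAT in only 1. The X box counts include H2-Oa (both forms) and H2-Ob (the shorter form), which had too few counts to be tested. The interferon response element core (3.44% of all windows) was found in 1 of the 10 and the gamma activated site (8.30%) in 1. Among the 12 higher genes with the largest differences, 8 had a window, of which 2 held CCAAT, 1 the longer X box core, 1 the gamma activated site and 0 the interferon response element core. The longer X box core there was that of H2-Eb1, already counted among the class II genes, and the CCAAT matches were those of H2-Eb1 and Cxcl9. These are letter matches in fixed windows and do not show binding.

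Ciita, the class II transactivator (chr16:10480072-10527564), stood at 109, 86.4, 16.6, 8.62 and 5.40 CPM in Cd74-high tumors, against 2.21, 2.63, 0.913, 1.49 and 1.15 CPM in Cd74-low tumors. The classes did not overlap, the 2 tumors that stand apart were the highest, and the log2 difference was 3.80 ± 0.91. H2-Aa, the alpha chain of I-A (chr17:34282751-34287771), stood at 380.2, 159, 31.8, 28.7 and 14.8 CPM in Cd74-high tumors, against 3.10, 3.74, 3.58, 1.30 and 0.9 CPM in Cd74-low tumors, a log2 difference of 4.70 ± 0.95. Its partner H2-Ab1, the beta chain, had 246, 107, 17.3, 20.0 and 13.2 CPM in Cd74-high tumors, against 6.08, 2.39, 2.25, 1.23 and 0.982 CPM in Cd74-low tumors (4.20 ± 0.93). For both chains the 2 tumors that stand apart were the highest, TGFbi+RT+anti-PD-L1 replicate 3 was the lowest of its class, and the classes did not overlap.

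H2-Eb1, the beta chain of I-E (chr17:34305867-34316674), was at 365, 151, 29.3, 27.1 and 17.0 CPM in Cd74-high tumors, against 3.22, 2.31, 2.39, 1.04 and 1.15 CPM in Cd74-low tumors, the largest difference of the class II list at 4.90 ± 0.89. H2-Ea, the alpha chain of I-E, was at 543, 210.0, 47.3, 42.0 and 26.3 CPM in Cd74-high tumors, against 5.01, 6.14, 4.56, 1.88 and 0.9 CPM in Cd74-low tumors (4.83 ± 0.95). C57BL/6 mice, whose genome is the reference here, carry a defective H2-Ea, while BALB/c mice express it, and class II genes vary between these strains, so reads from BALB/cJ may have been lost or moved between class II genes in the counts. Both I-E chains separated the classes without overlap.

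The H2-DM chaperone was counted through 3 genes, of which the beta genes are close paralogs whose reads may be shared. H2-DMa stood at 66.1, 53.3, 8.93, 8.92 and 9.03 CPM in Cd74-high tumors, against 4.77, 3.74, 5.27, 5.12 and 4.99 CPM in Cd74-low tumors (1.98 ± 0.67). The other 3 Cd74-high tumors stood close together for H2-DMa, at 8.92 to 9.03 CPM, above the Cd74-low tumors and level with RT replicate 1 and TGFbi+RT replicate 2 of the middle class. H2-DMb1 was at 38.3, 24.5, 2.67, 3.49 and 2.36 CPM in Cd74-high tumors, against 1.01, 0.239, 0.14, 0.0648 and 0 CPM in Cd74-low tumors (4.51 ± 0.98), and H2-DMb2 at 1.56 to 17.5 CPM in Cd74-high tumors, against 0.0596 to 0.717 CPM in Cd74-low tumors (3.74 ± 0.72). The 3 tested genes of the list that overlapped between the classes encode endosomal enzymes. They were Ctss, the cathepsin that cuts the last part of the invariant chain (56.2 to 653 CPM in Cd74-high tumors, 13.5 to 82.1 CPM in Cd74-low tumors), the thiol reductase Ifi30 (51.3 to 167 CPM in Cd74-high tumors, 40.9 to 56.7 CPM in Cd74-low tumors) and the protease Lgmn (143 to 461 CPM in Cd74-high tumors, 78.8 to 203 CPM in Cd74-low tumors). For Ctss the overlap came from Sham replicate 1, at 82.1 CPM against at most 31.9 CPM in the other Cd74-low tumors.

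**Figure D3:**
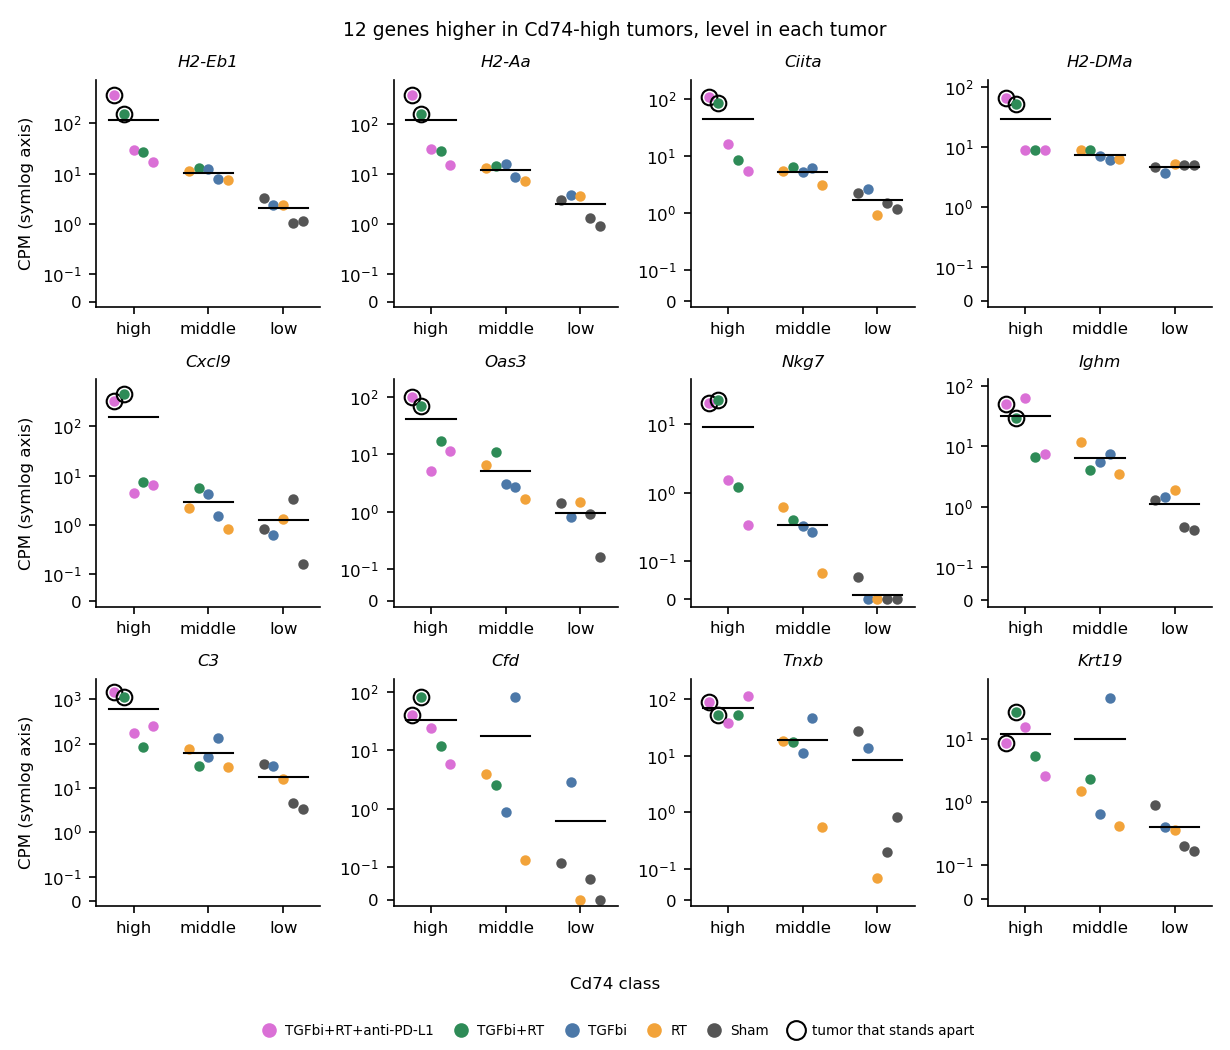
CPM of 12 higher genes in each tumor of the Cd74-high, middle and Cd74-low classes, with a line at the class mean, on a vertical axis that is linear below 0.1 CPM and logarithmic above. In each panel the 5 Cd74-high tumors lie above the 5 Cd74-low tumors. In every panel except H2-Eb1 a middle tumor lies above the lowest Cd74-high tumor, as TGFbi replicate 1 does for C3, Cfd, Tnxb and Krt19.

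The type I interferon response list held the most higher genes of the 31 lists. These genes, which restrict viral replication, were higher for 20 of 28, with a median of 2.83 (19 higher and 1.77 without the 2 tumors that stand apart). Oas3, an antiviral sensor of double-stranded RNA, stood at 102, 69.6, 5.20, 17.4 and 11.5 CPM in Cd74-high tumors, against 1.43, 0.797, 1.47, 0.907 and 0.164 CPM in Cd74-low tumors (4.65 ± 0.91). Its relative Oas2 averaged 42.5 ± 37.3 CPM in Cd74-high tumors, against 1.90 ± 1.18 CPM in Cd74-low tumors (4.12 ± 0.78), and Ifit3, which binds viral RNA complexes, averaged 28.1 ± 29.9 CPM in Cd74-high tumors, against 0.833 ± 0.625 CPM in Cd74-low tumors (4.33 ± 0.92). Ifit3 and the neighbouring Ifit3b are near-identical, and their counts may be split.

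Genes of the interferon gamma pathway were higher for 12 of 28, with a median of 2.90. Without the tumors that stand apart the median was 1.22, with 10 genes higher. Cxcl9, a chemokine that attracts activated T cells, stood at 322, 449, 4.46, 7.58 and 6.33 CPM in Cd74-high tumors, against 0.834, 0.637, 1.33, 3.43 and 0.164 CPM in Cd74-low tumors (4.93 ± 1.58). Outside the 2 tumors that stand apart the Cd74-high values began at 4.46 CPM, near the highest Cd74-low value of 3.43 CPM in Sham replicate 3. Guanylate binding protein gene Gbp6 had 191, 285, 6.40, 11.4 and 6.83 CPM in Cd74-high tumors, against 1.67, 0.398, 0.702, 3.11 and 0.0818 CPM in Cd74-low tumors (5.09 ± 1.37). The GTPase Iigp1 had 428, 615, 11.1, 25.2 and 17.2 CPM in Cd74-high tumors, against 3.28, 2.07, 2.18, 4.66 and 0.736 CPM in Cd74-low tumors (4.81 ± 1.29), and the serine protease inhibitor gene Serpina3g, a member of a large paralog cluster, had a difference of 4.90 ± 1.5037. AW112010, an interferon-induced transcript among the 12 largest differences, was at 2.53 to 90.7 CPM in Cd74-high tumors and 0 to 0.536 CPM in Cd74-low tumors (5.05 ± 1.17). Ifng itself had 52 counts over the 5 Cd74-high tumors and 7 over the 5 Cd74-low tumors, too few to pass the filter. It was at 1.36, 2.13, 0.133, 0.149 and 0.253 CPM in Cd74-high tumors, against 0.179, 0.159, 0.0702, 0.0648 and 0 CPM in Cd74-low tumors, with overlap.

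MHC class I presentation genes, which load peptides for cytotoxic T cells, overlapped with 1 exception. Of 20 tested members 1 was higher, beside 3.63% of all genes. It was the immunoproteasome subunit gene Psmb10, at 52.7, 56.0, 10.7, 11.3 and 9.96 CPM in Cd74-high tumors, against 4.95, 7.81, 6.25, 5.25 and 5.48 CPM in Cd74-low tumors (1.78 ± 0.58). The list had a median of 1.03, and 0.27 without the 2 tumors that stand apart, with 0 higher genes there. Summed class I levels were 5534, 4799.7, 1375, 1349 and 1271 CPM in Cd74-high tumors, against 1643, 738, 919, 1334 and 1196 CPM in Cd74-low tumors, so 3 of the 5 Cd74-high tumors lay within the Cd74-low range. Whether the class I and class II lists differed was not tested. Cd274, the gene of the checkpoint ligand PD-L1, had 122, 184, 5.73, 11.2 and 9.79 CPM in Cd74-high tumors, against 7.51, 2.87, 2.39, 3.95 and 2.62 CPM in Cd74-low tumors, and overlapped through TGFbi+RT+anti-PD-L1 replicate 1.

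T cell markers were higher for 8 of 21, 19 of them lay above 0 and 2 below, with a median of 2.86 (1.94 without the 2 tumors that stand apart, and 8 higher). Cd3e, a signaling chain of the T cell receptor complex, was at 22.3, 6.05, 9.20, 0.892 and 0.253 CPM in Cd74-high tumors, against 0.0596, 0.239, 0, 0 and 0 CPM in Cd74-low tumors, where it had 4 counts in all 5 tumors. Among the members that overlapped, Tcf7, a transcription factor of T cells and of some other tissues, averaged 176 CPM in Cd74-high tumors and 244 CPM in Cd74-low tumors, and Bcl11b, a T lineage factor also found in mammary epithelium, averaged 21.5 CPM in Cd74-high tumors and 22.8 CPM in Cd74-low tumors. Summed T cell levels, to which Tcf7 contributes the most in Cd74-low tumors, overlapped at 263 to 463 CPM in Cd74-high tumors and 222 to 401 CPM in Cd74-low tumors. Within the Cd74-high class Cd3e spanned 0.253 to 22.3 CPM, and its lowest tumor, TGFbi+RT+anti-PD-L1 replicate 3, barely exceeded TGFbi replicate 2 of the Cd74-low class at 0.239 CPM.

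Cytotoxic effectors, through which killer T cells and natural killer cells lyse targets, were higher for 7 of 11, with a median of 3.90 and of 2.13 without the 2 tumors that stand apart. Of 19 listed genes found, 11 passed the filter. Prf1, which encodes the pore protein perforin, stood at 21.0, 51.7, 1.53, 2.23 and 0.675 CPM in Cd74-high tumors, against 0.238, 0.319, 0, 0.0648 and 0.164 CPM in Cd74-low tumors (4.20 ± 1.18). Nkg7, a lytic granule gene, stood at 20.1, 22.2, 1.53, 1.19 and 0.337 CPM in Cd74-high tumors, and 1 count of it was found over the 5 Cd74-low tumors. Gzma, a granule protease, stood at 22.999, 64.0, 0.267, 1.41 and 0.253 CPM in Cd74-high tumors, again with 1 count in Cd74-low tumors. The natural killer receptor gene Klrk1 stood at 34.0, 27.8, 1.87, 1.56 and 0.844 CPM in Cd74-high tumors, against 0.179, 0.319, 0.0702, 0.0648 and 0.0818 CPM in Cd74-low tumors (4.20 ± 1.10). For these 4 genes the 2 tumors that stand apart were far above the other 3. Il2rb, the beta chain of the receptors for interleukins 2 and 15, showed the same layout at 77.1, 95.4, 8.13, 6.39 and 0.844 CPM in Cd74-high tumors, against 0.417, 0.398, 0.421, 0.259 and 0.0818 CPM in Cd74-low tumors (4.91 ± 1.25).

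Among checkpoint and regulatory T cell genes 2 of 14 were higher, with a median of 1.93 (1.05 without the 2 tumors that stand apart). Il2ra, the high affinity chain of the interleukin 2 receptor, averaged 7.72 ± 7.66 CPM in Cd74-high tumors, against 0.0687 ± 0.0711 CPM in Cd74-low tumors (4.43 ± 0.88). Pdcd1, the gene of the checkpoint receptor PD-1, stood at 7.21, 0.767, 0.733, 0.52 and 0.0844 CPM in Cd74-high tumors, against 0.0596, 0.0797, 0.0702, 0 and 0.0818 CPM in Cd74-low tumors, where 4 counts were found. Among B cell and plasma cell markers 2 of 9 were higher, with a median of 2.49 that was 1.49 without TGFbi+RT+anti-PD-L1 replicate 1 and 2.23 without the 2 tumors that stand apart. Ighm, the heavy chain of immunoglobulin M, was at 50.2, 29.8, 64.7, 6.62 and 7.42 CPM in Cd74-high tumors, against 1.31, 1.43, 1.90, 0.454 and 0.409 CPM in Cd74-low tumors (4.32 ± 0.78), and was highest in that tumor. Cd37, a tetraspanin of B cells and other leukocytes, was at 18.8, 7.67, 8.66, 5.28 and 8.18 CPM in Cd74-high tumors, against 2.92, 1.51, 0.562, 1.10 and 0.409 CPM in Cd74-low tumors (2.91 ± 0.53).

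Macrophage markers were higher for 3 of 20, beside 3.63% of all genes, and all 20 lay above 0 with a median of 2.09 (1.26 without the 2 tumors that stand apart). Their summed level was 9593, 5847, 1600.3, 2085 and 3896 CPM in Cd74-high tumors, against 2249, 1192, 756, 1023 and 596 CPM in Cd74-low tumors, and the overlap came from Sham replicate 1. Csf1r, the receptor that keeps macrophages alive, was at 374, 252, 66.4, 88.6 and 127 CPM in Cd74-high tumors, against 65.0, 46.2, 29.8, 25.9 and 16.4 CPM in Cd74-low tumors (2.16 ± 0.58). There TGFbi+RT+anti-PD-L1 replicate 1 was close to Sham replicate 1. Fcgr1, a high affinity immunoglobulin receptor induced by interferon gamma, was at 55.9, 39.4, 5.13, 9.59 and 13.2 CPM in Cd74-high tumors, against 2.98, 1.91, 1.61, 2.07 and 1.96 CPM in Cd74-low tumors (2.96 ± 0.65).

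Monocyte and neutrophil markers were higher for 9 of 15, with a median of 2.67 (1.86 without the 2 tumors that stand apart). Ccr2, which brings monocytes from blood, was at 121, 104, 18.2, 20.5 and 38.7 CPM in Cd74-high tumors, against 5.30, 6.77, 5.06, 1.23 and 1.31 CPM in Cd74-low tumors (3.77 ± 0.76). Ly6c2, a marker of inflammatory monocytes close in sequence to Ly6c1, averaged 10.2 ± 12.1 CPM in Cd74-high tumors, against 0.235 ± 0.246 CPM in Cd74-low tumors (4.01 ± 0.97).

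Dendritic cell markers were higher for 6 of 15, with a median of 2.07 (1.16 without the 2 tumors that stand apart). Xcr1, the chemokine receptor of cross-presenting dendritic cells, was at 9.46, 4.35, 3.07, 5.06 and 1.18 CPM in Cd74-high tumors, against 0.238, 0.956, 0.632, 0.518 and 0.164 CPM in Cd74-low tumors (2.76 ± 0.58). Flt3, the receptor of their growth factor, was at 4.63, 2.13, 2.47, 0.595 and 1.35 CPM in Cd74-high tumors, against 0.179, 0.478, 0.14, 0.194 and 0 CPM in Cd74-low tumors (2.68 ± 0.56). Ccl22, a chemokine of mature dendritic cells that attracts regulatory T cells, was at 16.7, 28.4, 9.40, 3.64 and 0.759 CPM in Cd74-high tumors, against 0.298, 0.398, 0.14, 0.194 and 0.0818 CPM in Cd74-low tumors (4.30 ± 0.91). For Xcr1 and Flt3 the lowest Cd74-high tumor was close to TGFbi replicate 2, the highest Cd74-low tumor.

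Mast cell, eosinophil and basophil markers were higher for 4 of 8, with a median of 1.76 (1.47 without the 2 tumors that stand apart). The summed list overlapped at 38.1 to 131 CPM in Cd74-high tumors and 10.6 to 129.8 CPM in Cd74-low tumors, and most of it was Kit, a receptor that mast cells share with mammary epithelium. The scarcer mast cell protease Mcpt4 was at 2.18, 1.96, 1.40, 0.446 and 1.52 CPM in Cd74-high tumors, against 0, 0.159, 0, 0 and 0 CPM in Cd74-low tumors, where 2 counts were found. Chemokines and their receptors were higher for 4 of 20, with a median of 1.96 (1.34 without the 2 tumors that stand apart). Ccl6, a chemokine of macrophages, was at 147, 278, 62.1, 70.0 and 404 CPM in Cd74-high tumors, against 44.1, 48.4, 3.58, 13.0 and 8.02 CPM in Cd74-low tumors (3.27 ± 0.89), and its highest level was in TGFbi+RT+anti-PD-L1 replicate 3, the tumor with the lowest Cd74 of its class. Cxcr3, the receptor of Cxcl9, was at 9.80, 5.88, 2.20, 1.26 and 1.86 CPM in Cd74-high tumors, against 0.119, 0.239, 0.14, 0 and 0 CPM in Cd74-low tumors (3.85 ± 0.60).

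Complement genes were higher for 7 of 15, with a median of 2.41 (1.77 without the 2 tumors that stand apart, and 7 higher). C3, the central component (chr17:57203973-57228136), stood at 1417, 1119, 171, 84.7 and 244 CPM in Cd74-high tumors, against 34.9, 31.2, 15.9, 4.47 and 3.35 CPM in Cd74-low tumors (4.85 ± 1.05). Middle tumors, at 74.2, 31.1, 48.9, 130.0 and 29.2 CPM, overlapped both classes. C4b, which acts before C3 in the classical pathway, stood at 444, 279.9, 69.6, 92.1 and 170.0 CPM in Cd74-high tumors, against 28.8, 26.9, 4.63, 8.16 and 4.50 CPM in Cd74-low tumors (3.97 ± 0.76). In both genes each Cd74-high tumor lay at more than 2 times the highest Cd74-low tumor.

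Resting fibroblast markers were higher for 5 of 17, with a median of 1.97 (1.69 without the 2 tumors that stand apart), while 0 of 23 matrix and activated fibroblast genes (median 0.93, and 0.72 without the 2 tumors that stand apart) and 0 of 18 mesenchymal transition genes (median 1.06, and 0.71 without them) were higher. Most members of all 3 lists lay above 0, and whether the lists differ was not tested. Ly6a, a surface protein of fibroblasts and lymphocytes that interferon also induces, was at 205, 175, 17.6, 32.3 and 54.8 CPM in Cd74-high tumors, against 14.7, 5.42, 1.69, 3.24 and 5.24 CPM in Cd74-low tumors (3.73 ± 0.85). Clec3b, the gene of tetranectin, was at 12.7, 6.48, 3.27, 3.42 and 8.27 CPM in Cd74-high tumors, against 1.49, 1.12, 0, 0.13 and 0.245 CPM in Cd74-low tumors (3.61 ± 0.76). Ly6c1 had a difference of 4.01 ± 0.95 and is close in sequence to Ly6c2. Not on any list, the matrix glycoprotein genes Tnxb (tenascin X, 88.2, 52.6, 38.2, 51.9 and 114 CPM in Cd74-high tumors, against 27.7, 13.6, 0.0702, 0.194 and 0.818 CPM in Cd74-low tumors, 5.04 ± 1.44) and Efemp1 (fibulin 3, 46.4, 21.7, 8.53, 8.70 and 25.6 CPM in Cd74-high tumors, against 2.86, 2.15, 0, 0 and 0.0818 CPM in Cd74-low tumors, 5.17 ± 1.08) were among the 12 largest differences. In TGFbi+RT+anti-PD-L1 replicate 3 both exceeded their level in TGFbi+RT replicate 3, a tumor that stands apart.

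Abundant matrix transcripts did not separate the classes. Col1a1, the main chain of type I collagen, was at 3397, 1850.3, 676, 1086 and 3283 CPM in Cd74-high tumors, against 4313, 956, 407, 278 and 218 CPM in Cd74-low tumors, and fibronectin (Fn1) at 2566, 2319, 730.2, 1508 and 2597 CPM in Cd74-high tumors, against 3163, 748, 607, 600.3 and 496 CPM in Cd74-low tumors. In each case Sham replicate 1 held the highest level of the 10 tumors, and TGFbi replicate 2 also lay above TGFbi+RT+anti-PD-L1 replicate 1. Direct TGF beta targets were higher for 1 of 25, close to the 3.63% of all genes. Their median was 0.30 (0.12 to 0.46 when 1 tumor at a time was left out, and 0.08 without the 2 tumors that stand apart). Lowest was the value without TGFbi replicate 2 and highest that without TGFbi+RT+anti-PD-L1 replicate 1, with 0.17 and 0.18 without TGFbi+RT+anti-PD-L1 replicate 2 and Sham replicate 2. The 1 gene was Tgfbi, which encodes a matrix protein induced by TGF beta and is unrelated to the group label, at 88.4, 69.5, 27.8, 26.2 and 42.9 CPM in Cd74-high tumors, against 17.2, 14.3, 8.28, 6.03 and 5.56 CPM in Cd74-low tumors (2.27 ± 0.47). Every tumor of the Cd74-high class had received an inhibitor of TGF beta signaling. Tgfb1, the ligand, overlapped at 48.0 to 117 CPM in Cd74-high tumors and 27.0 to 66.8 CPM in Cd74-low tumors.

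Vessel markers overlapped for the most part, as did genes at large, of which 3.63% were higher. Endothelial markers were higher for 0 of 19, with a median of 0.57 that became 1.04 without Sham replicate 1 and 0.37 without the 2 tumors that stand apart, and Eng, an endothelial coreceptor of TGF beta ligands, was at 119 to 175 CPM in Cd74-high tumors and 91.9 to 152 CPM in Cd74-low tumors. Pericyte and smooth muscle markers were higher for 1 of 12, with a median of 0.57 that ranged over 0.20 to 0.91 as single tumors were left out (lowest without Sham replicate 2, highest without Sham replicate 1, and 0.30 without TGFbi+RT+anti-PD-L1 replicate 2), and that was 0.22 without the 2 tumors that stand apart. The 1 gene, Myh11, the smooth muscle myosin also found in myoepithelium, was at 43.6, 40.8, 17.7, 22.3 and 14.1 CPM in Cd74-high tumors, against 9.30, 5.74, 3.09, 3.56 and 3.19 CPM in Cd74-low tumors (2.43 ± 0.44).

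**Figure D4:**
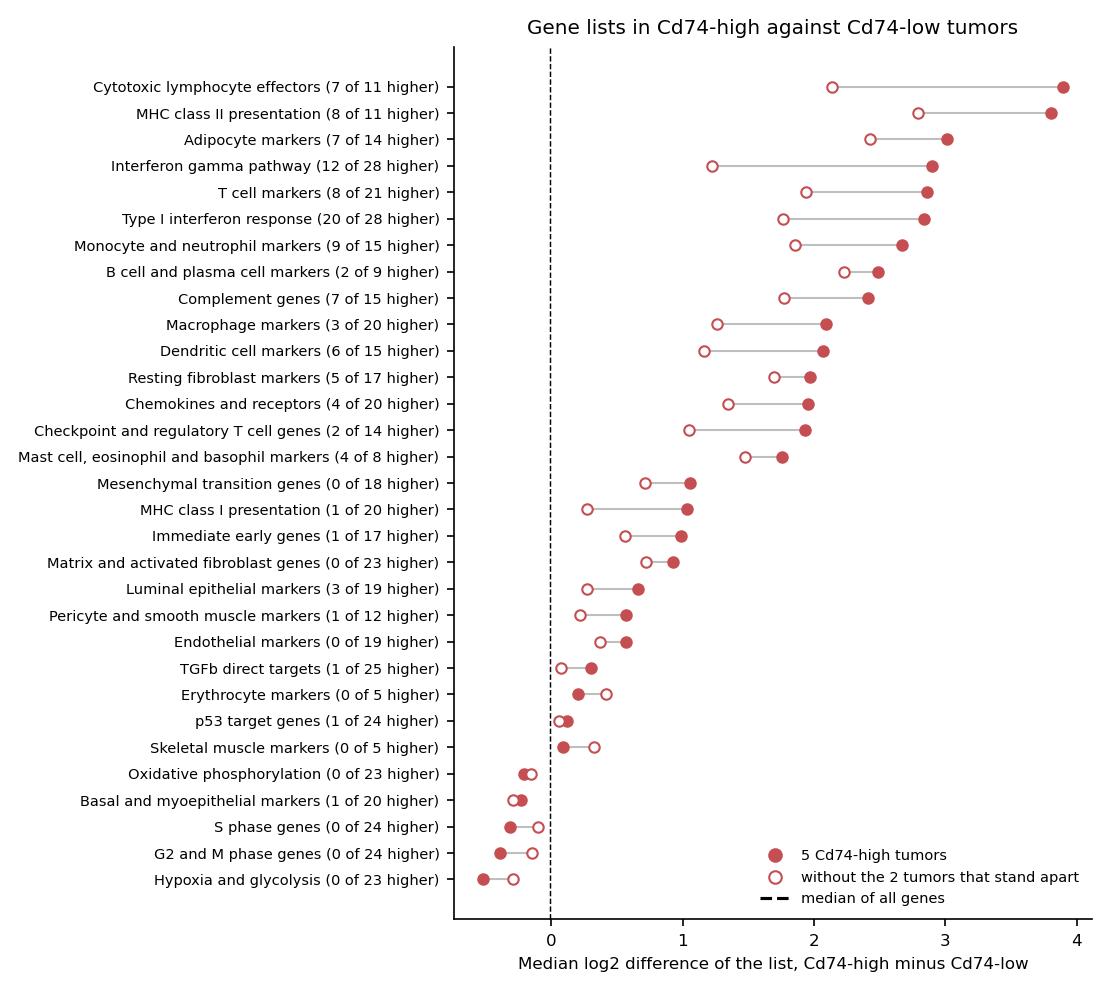
Median log2 difference of Cd74-high minus Cd74-low tumors for the tested members of 31 gene lists, over all 5 Cd74-high tumors (filled) and without the 2 tumors that stand apart (open), with the number of higher members in brackets and a dashed line at the median of all genes, -0.01. Cytotoxic, MHC class II and adipocyte lists lie at the top with medians of 3.90, 3.80 and 3.01, and hypoxia, cell cycle, basal and oxidative phosphorylation lists lie below 0.

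Adipocyte genes held the 2 largest differences of all tested genes, Cfd and Car3. The list was higher for 7 of 14, with a median of 3.01 (2.42 without the 2 tumors that stand apart). Cfd, the complement protease adipsin that fat cells secrete (chr10:79890853-79892656), stood at 40.4, 82.3, 24.3, 11.8 and 5.91 CPM in Cd74-high tumors, against 0.119, 2.87, 0, 0.0648 and 0 CPM in Cd74-low tumors (6.12 ± 1.05). Car3, a carbonic anhydrase of fat and muscle, stood at 34.8, 54.0, 46.8, 10.2 and 4.47 CPM in Cd74-high tumors, against 0, 3.67, 0, 0.0648 and 0.245 CPM in Cd74-low tumors (5.85 ± 1.12), and Plin1, which coats fat droplets, at 8.57, 15.5, 9.06, 2.16 and 1.10 CPM in Cd74-high tumors, against 0, 0.319, 0.0702, 0.0648 and 0 CPM in Cd74-low tumors (4.58 ± 0.75). In the middle class TGFbi replicate 1 held 80.8 CPM of Cfd and 70.9 CPM of Car3, while the other 4 tumors of that class held 0.136 to 3.93 and 0 to 11.2 CPM. Summed adipocyte levels were 109.8 to 458 CPM in Cd74-high tumors, 58.4 to 501 CPM in middle tumors and 43.3 to 123 CPM in Cd74-low tumors. The gland these tumors grow in is rich in fat, and the part of adjoining tissue in these differences was not tested.

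Luminal epithelial markers were higher for 3 of 19, beside 3.63% of all genes. Their median of 0.66 was 0.27 without the 2 tumors that stand apart and ranged over 0.18 to 1.18 as single tumors were left out (lowest without TGFbi replicate 2, highest without Sham replicate 1, and 1.02 and 0.37 without TGFbi+RT+anti-PD-L1 replicate 3 and Sham replicate 2). Krt19, a keratin of luminal cells, stood at 8.51, 27.1, 15.5, 5.43 and 2.62 CPM in Cd74-high tumors, against 0.894, 0.398, 0.351, 0.194 and 0.164 CPM in Cd74-low tumors (4.17 ± 0.65), and at 45.0 CPM in TGFbi replicate 1. The progesterone receptor gene Pgr stood at 8.44, 11.8, 8.46, 3.27 and 3.80 CPM in Cd74-high tumors, against 0.358, 0.159, 1.90, 0.324 and 0.327 CPM in Cd74-low tumors (3.47 ± 0.58), and Krt8, another luminal keratin, overlapped at 0.928 to 29.4 CPM in Cd74-high tumors and 0.327 to 21.5 CPM in Cd74-low tumors. Skeletal muscle and erythrocyte markers were higher for 0 of 5 tested members each, with medians of 0.09 and 0.20 that ranged over -0.12 to 0.26 and -0.09 to 0.49 as single tumors were left out and were 0.33 and 0.41 without the 2 tumors that stand apart. The muscle median was below 0 without TGFbi+RT replicate 1, TGFbi+RT+anti-PD-L1 replicate 3, TGFbi replicate 2 or RT replicate 3, and the erythrocyte median without RT replicate 3. Myoglobin (Mb), the most abundant muscle member, overlapped at 1.20 to 4.01 CPM in Cd74-high tumors and 1.97 to 13.3 CPM in Cd74-low tumors. The alpha globin gene Hba-a2 overlapped at 83.6 to 369 CPM in Cd74-high tumors and 74.8 to 438 CPM in Cd74-low tumors.

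The 5 lower genes had modest differences. Tns4, a focal adhesion adaptor of epithelial cells (chr11:99065678-99089306), stood at 107, 164, 212, 163 and 201 CPM in Cd74-high tumors, against 400.5, 336, 304, 364 and 329.6 CPM in Cd74-low tumors, a log2 difference of -1.07 ± 0.18. Padi3, which converts arginine to citrulline in epithelial proteins (chr4:140785369-140810648), stood at 40.5, 44.7, 49.7, 29.7 and 17.7 CPM in Cd74-high tumors, against 109, 101, 53.7, 60.8 and 104 CPM in Cd74-low tumors (-1.26 ± 0.34). Tspan18, a tetraspanin gene (chr2:93201760-93334487), stood at 17.6, 41.5, 30.4, 27.5 and 34.9 CPM in Cd74-high tumors, against 79.2, 64.9, 56.8, 49.2 and 57.5 CPM in Cd74-low tumors (-1.05 ± 0.24). The remaining genes, named after their values were seen, were scarce: the homeobox gene Vax2 at 0 to 0.426 CPM in Cd74-high tumors and 0.518 to 0.983 CPM in Cd74-low tumors (-1.51 ± 0.38), and the long noncoding RNA gene Mdrl at 0.169 to 1.28 CPM in Cd74-high tumors and 1.40 to 2.66 CPM in Cd74-low tumors (-1.37 ± 0.40).

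Basal and myoepithelial markers lay below the Cd74-low tumors in sum. Their summed level was 2308, 2231, 3048, 3268 and 2896 CPM in Cd74-high tumors, against 4097, 4017, 3432, 3323 and 4373 CPM in Cd74-low tumors, with no overlap, while the median log2 difference of the 20 genes was only -0.23 (-0.35 to -0.14 when 1 tumor at a time was left out, with -0.14 and -0.15 without Sham replicate 1, TGFbi+RT+anti-PD-L1 replicate 3 or TGFbi+RT replicate 3), and -0.29 without the 2 tumors that stand apart. Of the 20, 8 lay above 0 and 12 below, 0 were lower and 1, Myh11, was higher. Col17a1, an anchoring collagen of basal epithelium, and Sox10, a transcription factor of basal and stem-like mammary cells, were the 2 members with every Cd74-high tumor below every Cd74-low tumor, and are named after their values were seen. At any fold, 190 of all 16016 genes (1.19%) had that layout. Col17a1 was at 225, 249, 303, 279 and 248 CPM in Cd74-high tumors, against 536, 468, 317, 308 and 476 CPM in Cd74-low tumors (-0.66 ± 0.18), and Sox10 at 185, 212, 325, 303 and 232 CPM in Cd74-high tumors, against 353, 340.2, 379, 348 and 342 CPM in Cd74-low tumors (-0.52 ± 0.16).

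**Figure D5:**
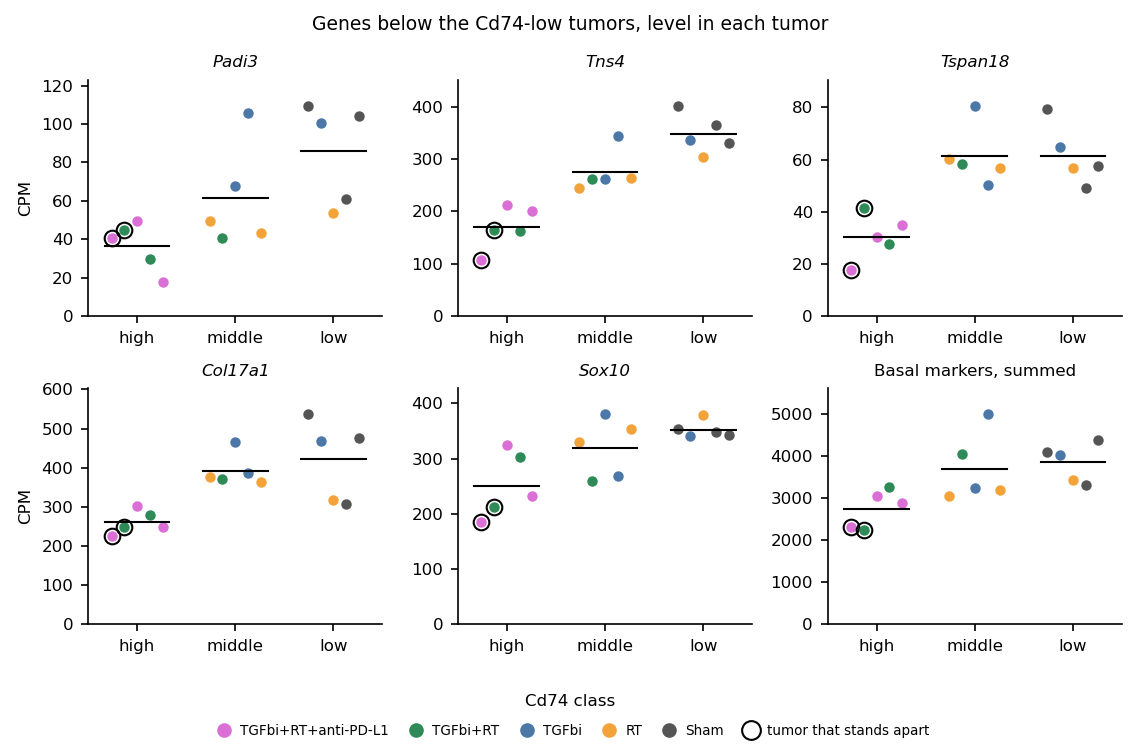
CPM of 3 lower genes, of Col17a1 and Sox10 and of the summed basal markers in each tumor of the Cd74-high, middle and Cd74-low classes, on linear axes from 0, with a line at the class mean. All Cd74-high tumors lie below all Cd74-low tumors in every panel. The highest Cd74-high and lowest Cd74-low tumors lie close for Col17a1 (303 and 308 CPM), Padi3 (49.7 and 53.7 CPM) and the basal sum (3268 and 3323 CPM).

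Cell cycle and metabolic lists overlapped between the classes, as did genes at large, of which 0.0312% were lower. All 24 S phase genes and all 24 G2 and M phase genes lay below 0, with medians of -0.32 (-0.21 without TGFbi+RT+anti-PD-L1 replicate 2) and -0.39, yet 0 were lower, and without the 2 tumors that stand apart the medians were -0.10 and -0.15. Mki67, a proliferation marker, was at 488, 577, 745, 586 and 627 CPM in Cd74-high tumors, against 607, 879, 979.7, 672 and 914 CPM in Cd74-low tumors. Hypoxia and glycolysis genes had a median of -0.52, of -0.31 without TGFbi+RT+anti-PD-L1 replicate 2 and of -0.29 without the 2 tumors that stand apart, with the glycolytic enzyme gene Pkm at 632, 907, 1399.6, 1631 and 1811 CPM in Cd74-high tumors, against 1775, 1457, 1677, 2222 and 2044 CPM in Cd74-low tumors. Oxidative phosphorylation genes had a median of -0.21 (-0.13 without Sham replicate 2, -0.15 without the 2 tumors that stand apart), and the share of counts on the mitochondrial chromosome was 2.57% to 4.62% in Cd74-high and 2.24% to 3.70% in Cd74-low tumors. Among p53 targets 1 of 24 was higher, close to the 3.63% of all genes. It was Eda2r, a receptor of the tumor necrosis factor family (7.12 ± 6.06 CPM in Cd74-high tumors, 0.941 ± 0.586 CPM in Cd74-low tumors, 2.48 ± 0.64). The list median was 0.12 (0.19 without RT replicate 3, 0.06 without the 2 tumors that stand apart). Immediate early genes had a median of 0.99 (0.56 without the 2 tumors that stand apart), and 1 of 17 was higher, Klf2, a factor of quiescent T cells and endothelium (24.6 ± 12.1 CPM in Cd74-high tumors, 5.02 ± 3.63 CPM in Cd74-low tumors, 2.40 ± 0.58).

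The 2 tumors that stand apart carried the highest levels of most higher genes. They were the 2 highest of all 15 for 441 of the 582 higher genes (75.8%), beside 2555 of all 16016 tested genes (16.0%). The choice of the higher genes by these tumors favours the larger share. In 220 of the 582 their mean was at least 4 times that of the other 3 Cd74-high tumors, and in 18 the other 3 had the higher mean. TGFbi+RT+anti-PD-L1 replicate 2 was the highest Cd74-high tumor for 393 genes, TGFbi+RT replicate 3 for 143, and TGFbi+RT+anti-PD-L1 replicate 3, TGFbi+RT+anti-PD-L1 replicate 1 and TGFbi+RT replicate 1 for 26, 15 and 5. Themis, Gpr174 and Clca3a2, named after their values were seen, were among 7 higher genes with 0 counts in all 5 Cd74-low tumors. Set against a floor of 3 counts over the Cd74-low class, Themis, a regulator of T cell development, was at least 40.2-fold higher in Cd74-high tumors, the orphan receptor gene Gpr174 at least 61.9-fold and the chloride channel accessory gene Clca3a2 at least 127-fold. These bounds pool the counts of the 5 tumors of a class, cover counting error only and do not show the spread between tumors. Such genes passed the filter only through other tumors, so the bounds are no support for a direction.

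Across the treatment groups, which the rule did not use, Cd74 averaged 37.5 ± 17.97 CPM in TGFbi, 32.9 ± 21.0 CPM in RT, 245 ± 284 CPM in TGFbi+RT, 541 ± 779 CPM in TGFbi+RT+anti-PD-L1 and 9.55 ± 7.96 CPM in Sham tumors (SD, n = 3 each). Its log2 fold change against Sham was 1.96 ± 1.17 in TGFbi, 1.77 ± 1.16 in RT, 4.67 ± 1.29 in TGFbi+RT and 5.81 ± 1.36 in TGFbi+RT+anti-PD-L1 (SE). None passed edgeR's quasi-likelihood test with Benjamini-Hochberg adjustment over 16017 genes, with adjusted p of 0.680, 0.999, 0.207 and 0.194, and the F test over the 5 groups gave Cd74 an adjusted p of 0.294. DESeq2 passed Cd74 in TGFbi+RT (4.68, adjusted p = 0.00719) and in TGFbi+RT+anti-PD-L1 (5.83, adjusted p = 0.000283). H2-Aa had edgeR log2 fold changes of 2.39 ± 1.24, 2.16 ± 1.24, 5.22 ± 1.34 and 6.30 ± 1.40 in the same 4 groups (adjusted p = 0.629, 0.999, 0.207 and 0.194). The 4 comparisons share the Sham tumors.

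Over all genes edgeR called 1 gene in TGFbi (0.00624%), 0 in RT (0%), 0 in TGFbi+RT (0%), 0 in TGFbi+RT+anti-PD-L1 (0%) and 0 by the F test (0%). At an unadjusted p under 0.05 there were 1359, 672, 2410, 2385 and 1729 genes, DESeq2 called 116, 1, 481, 619 and 656, and limma-voom called 0 in each. The 1 gene, Fbln7, had a log2 fold change of -2.50 and an edgeR adjusted p of 0.0157, and did not pass without TGFbi replicate 2, without TGFbi replicate 3 or without Sham replicate 2, nor with the replicate number as a block (adjusted p = 0.0519), while 2 genes passed without Sham replicate 1 and 5 without TGFbi replicate 1. Fbln7 overlapped between the Cd74 classes, at 9.63 to 24.8 CPM in Cd74-high tumors and 3.19 to 25.4 CPM in Cd74-low tumors. Without TGFbi+RT+anti-PD-L1 replicate 3, edgeR called 1 gene in RT and 4 in TGFbi+RT+anti-PD-L1, and the F test called 1 gene without Sham replicate 1, TGFbi replicate 1, TGFbi+RT replicate 3 or TGFbi+RT+anti-PD-L1 replicate 2.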

How the data were processed

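Total RNA was depleted of ribosomal RNA and sequenced from 16 libraries, per the labels. The deposited table holds raw counts per Entrez gene, with no normalization, and its column names, written by the authors, name Subread. The genome build was GRCm38 per the submitters' processing notes. A deposited annotation table holds other values, the exon coordinates and summed exon length. Aligner and strand settings are not given in the sources used here, so reads of genes overlapping on opposite strands cannot be told apart. Reads of BALB/cJ tumors were counted on a C57BL/6J genome, and paralogs (Gbp, Ifit, Serpina3, Ly6c) may share reads. Symbols matched 25275 of 27179 identifiers, and other identifiers took 7.86% to 13.8% of the counts of a tumor.

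Counts were analysed in R 4.3.3. The edgeR 4.0.16 filter filterByExpr on the 5 treatment groups kept 16017 genes, TMM factors were 0.919 to 1.05, and log2 CPM used a prior count of 2. Genes counted as higher or lower with no overlap of the 5 and 5 tumors and a log2 difference of at least 1. Labels were compared by Fisher's exact test and library totals by an exact permutation test. Treatment was tested by edgeR's quasi-likelihood fit over 15 tumors (10 residual degrees of freedom, common biological coefficient of variation 0.364) with Benjamini-Hochberg adjustment at 0.05, and by DESeq2 1.42.0 and limma 3.58.1 (voom) as alternatives. Replicates of a group are separate tumors, per the labels. Libraries of the same group differed beyond sampling noise (chi-square per gene 14.0 to 129). Across groups, same-numbered tumors deviated together about as often as differently numbered ones (correlation over 0.1 in 13 of 30 and 27 of 60 pairs). Numbers were therefore not treated as pairs.

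Named genes were Cd74, Ciita, Trp53, Cd274, Tgfb1, Ifng and Krt8, tested class II genes, up to 12 largest called genes in each direction with a mean log2 CPM of at least 1, and up to 4 called members of each other list, or its most abundant member where none was called. Some genes under this rule are not reported here. Classes, lists and genes were chosen with earlier results of these data known. The fits were tested on simulated data with less spread between tumors than the fit found here. Large changes were planted there in well-counted genes only, so this check does not show how the fits perform on these tumors. Bounds and floors cover counting error only, while SDs and standard errors come from the spread between tumors. Scaling, filter, prior count, fold, class size, ranking gene, tumors left out, library code and treatment means were varied.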

Additional observations from a re-analysis of the deposited data

Results flagged for a closer look

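Within each class of 5 tumors, 238 pairs of a class and a gene or list were examined for a highest or lowest tumor far from the rest (Dixon's ratio above 0.71). 26 were found, 20 of them among 176 pairs of a gene and a class. Chance flags about 1 in 20 groups of normally distributed values, and these CPM were not transformed, so that rate may not hold here. The pairs share tumors, so the flags are not independent.

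In the Cd74-high class TGFbi+RT+anti-PD-L1 replicate 2 was far above the other 4 tumors for Pdcd1 (7.21 CPM), Cd37 (18.8 CPM) and Eng (175 CPM).

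In the Cd74-low class Sham replicate 1 was far above the other 4 tumors for H2-Ab1 (6.08 CPM), H2-DMb1 (1.01 CPM), Ctss (82.1 CPM), Nkg7 (0.0596 CPM), Fn1 (3163 CPM), Col1a1 (4313 CPM) and Ly6a (14.7 CPM). Its summed levels were also far above the others for checkpoint and regulatory T cell genes (112 CPM), mesenchymal transition genes (5055 CPM), matrix and activated fibroblast genes (14896.5 CPM), endothelial markers (1206 CPM) and pericyte and smooth muscle markers (686 CPM), and far below them for S phase genes (1629 CPM). The same tumor had the highest Cd74 of its class. TGFbi replicate 2 was far above the others for H2-DMb2 (0.717 CPM), Cfd (2.87 CPM), Car3 (3.67 CPM), Cd3e (0.239 CPM), Gzma (0.0797 CPM), Mcpt4 (0.159 CPM), Plin1 (0.319 CPM) and Retn (0.319 CPM), several of them resting on a few counts. RT replicate 3 was far above the others for Pgr (1.90 CPM), and Sham replicate 3 was set apart for Pdcd1, with a level of 0 CPM.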

How the results depend on the processing

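Against 582 higher genes the count was 1406 with 4 and 259 with 7 tumors per class, 881 with library code A2301 only, and 568 to 1205 with single tumors left out. Against 5 lower genes it was 3 with no TMM factor, 38 at 1.5-fold, 0 at 4-fold, 25, 1 and 0 with 4, 6 and 7 tumors per class, 9 without both tumors that stand apart, 8 without the resubmitted libraries, 38 with code A2301 only, and 5 to 24 with single tumors left out. With treatment means removed both counts were 0, which says nothing about treatment: all 3 TGFbi+RT+anti-PD-L1 tumors are in 1 class and all 3 Sham tumors in the other, and values centred within each group must overlap. Settings added after seeing the data gave 2534 higher and 491 lower genes with code A2304 only (2 tumors against 1, where no overlap is easily met), and 826 and 71 against Sham tumors only. Ranked by H2-Aa, 511 genes were higher, 431 of them among the 582. The no-overlap rule is easier to meet with fewer tumors. Inhibitor treatment differed by 57.1 percentage points with 7 tumors per class (exact Fisher p = 0.103), and by 75.0 to 100 with single tumors left out, as did radiation; code A2304 differed by 5 to 40 points and the ratio of library totals ranged over 0.866 to 0.933. The treatment F test gave 1 gene without both tumors that stand apart, 0 to 1 with single tumors left out and 656 with DESeq2. Cd74 with single tumors left out had log2 fold changes of 1.61 to 2.91 in TGFbi, 1.25 to 2.72 in RT, 3.06 to 5.61 in TGFbi+RT and 3.22 to 6.75 in TGFbi+RT+anti-PD-L1, and with DESeq2 4.68 (adjusted p = 0.00719) in TGFbi+RT and 5.83 (adjusted p = 0.000283) in TGFbi+RT+anti-PD-L1. With the replicate block edgeR gave 0 genes by the F test, Cd74 at 2.00, 1.78, 4.73 and 5.84 in the same order (adjusted p = 0.763, 1.00, 0.314 and 0.307), and Fbln7 an adjusted p of 0.0519, so the block removed 1 call. Named genes moved by more than the pooled SD within the Cd74 classes in 116 values and by less in 2146, and list medians in 38 and 768. Both classes mix treatment groups and this SD is wide, so staying within it is a weak check. Krt8, at 1.46, fell as low as -0.04 and still counted as within it. No named gene called higher or lower changed sign; list medians and genes not called were not held to that, and some did. The cause of these changes was not tested. Genes with few counts in Cd74-low tumors, such as Gzma, are limited by depth.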
